A study of Mus musculus with 6 samples.

Results

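Transcription factor genes that set the identity and the maturation of natural killer (NK) cells were followed here, 10 in all: Tbx21, Eomes, Zeb2, Zeb1, Prdm1, Id2, Nfil3, Tox, Gata3 and Ets1. They were taken by gene symbol from the 19943 genes that the arrays measured, and 10 of 10 were measured, each by 1 probe set. Total RNA came from mouse NK cells, the innate lymphocytes that kill virus-infected and tumour cells. IL-18 generated cells and unstimulated cells were each measured on 3 arrays, from preparations that the design text calls independent. The labels name no strain, genotype, age or tissue of origin. They describe an overnight culture of NK1.1 isolated cells in medium holding 300 IU of IL-2 and 25 ng/ml of IL-18, after which IL-18 generated cells were sorted as CD11b negative and c-kit positive. Unstimulated cells were sorted as CD11b positive and c-kit negative, and both gates took live NK1.1 positive, CD3 negative cells. The labels do not say whether unstimulated cells also went through culture or IL-2, so the stimulus, the culture and the gate cannot be told apart.

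NK cells arise from lymphoid progenitors in steps that different factors direct. Nfil3, Ets1, Tox and Id2 act early, and Id2 works by binding E proteins and keeping them off DNA. Eomes and T-bet, the product of Tbx21, are related T-box factors that establish and then complete the NK programme. Late maturation, in which mouse NK cells gain CD11b and Klrg1, depends on T-bet and on Zeb2, and Blimp-1, the product of Prdm1, acts late as well. CD11b, which marks that late stage, is also a marker by which the gates differed, beside c-kit.

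Every value below is on a log2 scale and is centred, as deposited, so that the median of the 6 arrays is 0 for each probe set. Changes can be read and expression levels cannot. A change is the mean of the IL-18 generated arrays minus that of the unstimulated arrays, with its standard error (SE). The words rose and fell are used where limma, a linear model that pools variance across genes, gave an adjusted p below 0.05, with Benjamini-Hochberg adjustment over all 19943 genes. Arrays of 1 group differed by 0.16 to 0.23 (root mean square over genes, log2) and arrays of different groups by 0.57 to 0.63. Genes of the sort followed the gates: Kit changed by 2.79 ± 0.13 and Itgam, which encodes CD11b, by -5.32 ± 0.11 (± SE, with n = 3 arrays in each group here and below, on the log2 scale). Klrb1c, the gene of NK1.1, changed by -2.03 ± 0.11 although both gates were NK1.1 positive.

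Markers of other cell types also differed between the groups. All 8 measured monocyte and macrophage markers fell, with a median change of -2.73 and array means of -1.64 to -1.54 in IL-18 generated cells against 1.41 to 1.99 in unstimulated ones. All 10 neutrophil markers fell, with a median change of -2.99. Their array means were -1.15, -1.06 and -1.33 in IL-18 generated cells. In unstimulated cells they were 1.22, 2.44 and 1.23, highest in replicate 2. All 7 B cell and plasma cell markers fell as well (median -0.93), as did 6 of 7 mast cell and basophil markers (median -2.70). Of the B cell markers, Cd79a, Ms4a1 and Pax5 lost their calls when single arrays were left out (highest limma adjusted p 0.153, 0.137 and 0.149). The mast cell markers varied within the IL-18 generated group, with array means of -2.29, -0.38 and -2.31, and 5 of the 6 calls ended under a variance option of limma. These were Cpa3 and Mcpt8 with both the robust and the trended option, Fcer1a (adjusted p 0.051) and Ms4a2 (0.0503) with the robust one and Prss34 (0.0676) with the trended one. Markers of T cells split, with the 3 CD3 chain genes higher, Lat lower and 4 others that did not pass. Of 8 dendritic cell markers 6 fell and 2, Zbtb46 and Bst2, rose (median -0.47). The call of Xcr1, 1 of the 6, ended when single arrays were left out (highest limma adjusted p 0.124). Of 4 measured erythroid and platelet markers 3 fell and 1 did not pass (median -0.65). The 7 general NK cell markers all fell, with a median change of -0.87. Since the values are centred, whether a marker was near 0 in a group cannot be read. In sorted populations measured as bulk RNA, fewer cells of a type and less RNA per cell cannot be told apart.

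**Figure D1:**
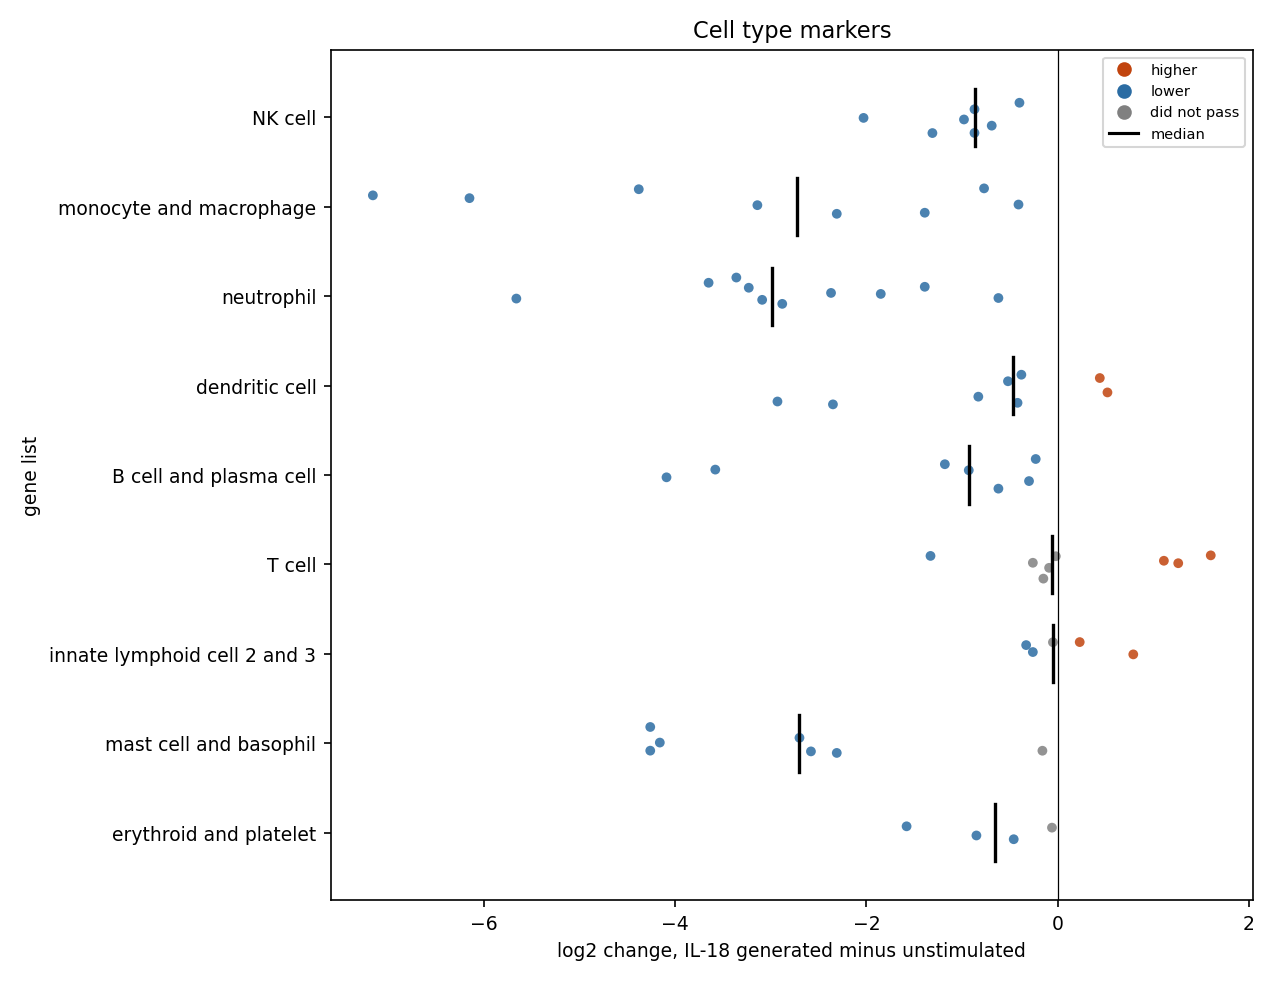
Log2 changes (IL-18 generated minus unstimulated, horizontal axis) of the markers of 9 cell types, 1 point per gene, coloured by the limma call, with the list median as a black line. The monocyte, neutrophil and mast cell lists lie farthest to the left, with medians of -2.73, -2.99 and -2.70.

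The factors of late maturation fell most. Prdm1, Tbx21 and Zeb2 were lower in IL-18 generated cells by 4.44-fold, 3.96-fold and 3.12-fold, and Ets1 by 2.11-fold. Eomes fell less, by 1.5-fold. Nfil3 rose 1.62-fold and Zeb1 1.27-fold, while Id2, Tox and Gata3 did not pass. In all, 7 of 10 genes passed, where 36.4% of all genes did. Of these 5 fell, against 16.7% of all genes, and 2 rose, against 19.7%. Of the 10 genes, 4 fell by at least 2-fold, as did 3.24% of all genes tested, and 0 rose by as much, as did 3.62% of all genes tested. In either direction that is 4 of 10, against 6.86% of all genes tested. The median change of the 10 was -0.37, beside -0.06 over all genes. The groups did not overlap for the same 7 genes that passed, and did not overlap for 48.6% of all genes.

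**Figure D2:**
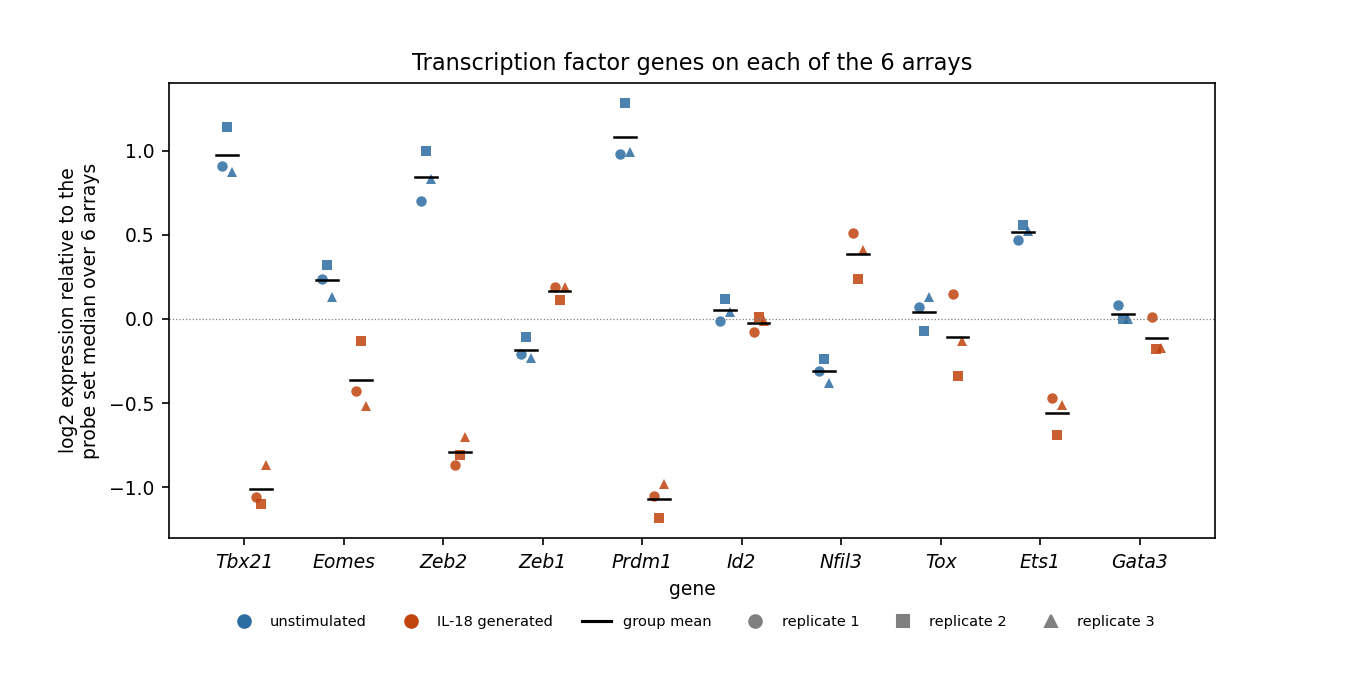
Values of the 10 genes on each array (log2 relative to the probe set median, vertical axis), with unstimulated arrays in blue, IL-18 generated arrays in orange, marker shapes for replicate numbers and black lines for group means. Tbx21, Zeb2, Prdm1 and Ets1 stand apart by group with gaps of 0.95 or more, while the groups overlap for Id2, Tox and Gata3.

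Of the T-box factors, Tbx21 (probe set 10390328) encodes T-bet, which drives terminal NK maturation and expression of Ifng. Its log2 values were -1.06, -1.10 and -0.87 on the IL-18 generated arrays and 0.91, 1.14 and 0.87 on the unstimulated arrays. The groups lay 1.75 apart at their nearest arrays, far beyond the standard deviations (SD) of 0.12 and 0.15 within them. The change was -1.99 ± 0.10 (95% interval -2.20 to -1.77), with an adjusted p of 1.85e-07 by limma. Of all genes tested, 0.953% changed by as much or more in the same direction.

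Eomes (probe set 10589994) encodes eomesodermin, needed to form and keep conventional NK cells. Eomes had log2 values of -0.43, -0.13 and -0.52 on the IL-18 generated arrays and 0.24, 0.32 and 0.13 on the unstimulated arrays. All IL-18 generated arrays were below all unstimulated ones, with a gap of 0.25 between the nearest, IL-18 replicate 2 and unstimulated replicate 3. The change was -0.58 ± 0.11 (95% interval -0.82 to -0.34), with an adjusted p of 0.00148 by limma. A change this low or lower was seen in 6.89% of all genes.

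The T-box pair was compared directly by subtracting Eomes from Tbx21 within each array. Because both genes are centred, the difference between groups has a meaning and the zero of the scale has none. The differences were -0.64, -0.97 and -0.35 on the IL-18 generated arrays and 0.67, 0.83 and 0.75 on the unstimulated arrays. Tbx21 thus changed by -1.40 more than Eomes on the log2 scale, a 2.65-fold shift of their ratio, and no arrays of the groups overlapped. The exact two-sided permutation test gave p = 0.1, the smallest that 3 arrays against 3 allow.

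**Figure D3:**
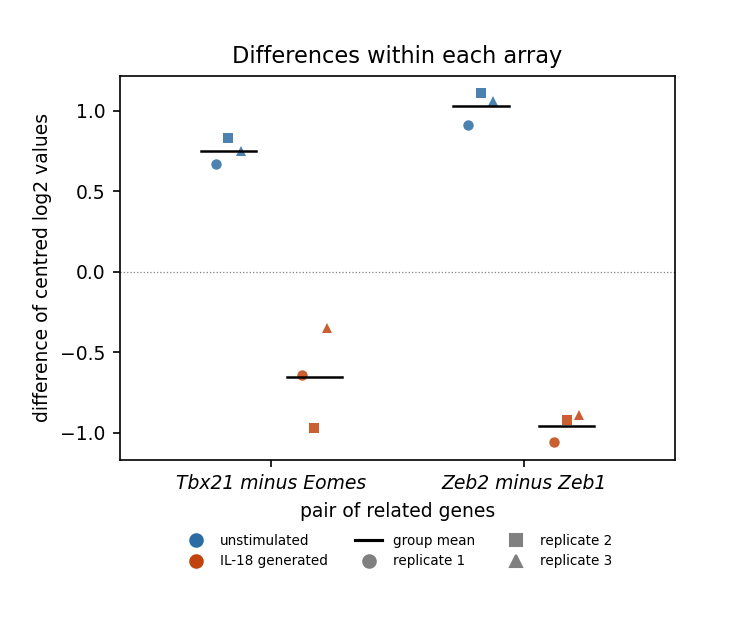
Differences between related genes within each array (centred log2 values, vertical axis) for Tbx21 minus Eomes and Zeb2 minus Zeb1, with groups, replicates and means drawn as points and lines defined in the legend. Both differences are lower on every IL-18 generated array, by -1.40 and -1.98 on average.

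Among the maturation factors, Prdm1 (probe set 10368970) encodes the repressor Blimp-1, which also directs plasma cell formation. Its log2 values were -1.05, -1.18 and -0.98 on the IL-18 generated arrays and 0.98, 1.28 and 0.99 on the unstimulated arrays. The gap between groups, 1.95, was the widest of the 10 genes, and unstimulated replicate 2 was the highest array. The change was -2.15 ± 0.10 (95% interval -2.37 to -1.93), with an adjusted p of 1.31e-07 by limma, and 0.812% of all genes changed as far down. Plasma cells and macrophages also express Prdm1. The B cell and plasma cell markers fell in the same arrays (7 of 7, array means -0.98 to -0.52 against 0.44 to 1.32), as did the monocyte and macrophage markers (8 of 8, median -2.73). The part of either in the change was not tested.

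Zeb2 (probe set 10482448) encodes a zinc finger repressor that acts with T-bet in late NK maturation. Its log2 values were -0.87, -0.81 and -0.70 on the IL-18 generated arrays and 0.70, 1.00 and 0.83 on the unstimulated arrays. Every IL-18 generated array was at least 1.41 below every unstimulated one. The change was -1.64 ± 0.09 (95% interval -1.84 to -1.44), with an adjusted p of 4.47e-07 by limma, and 1.36% of all genes changed as far down. Monocytes and macrophages also express Zeb2, and their markers fell in the same arrays (8 of 8, array means -1.64 to -1.54 against 1.41 to 1.99). The part of these markers in the change of Zeb2 was not tested.

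Zeb1 (probe set 10453678) encodes the other factor of the ZEB family, which binds the same E-box sequences as Zeb2. The log2 values of Zeb1 were 0.19, 0.11 and 0.19 on the IL-18 generated arrays and -0.21, -0.11 and -0.23 on the unstimulated arrays. All IL-18 generated arrays were above all unstimulated ones, with a gap of 0.22. The change was 0.34 ± 0.07 (95% interval 0.18 to 0.51), with an adjusted p of 0.00402 by limma. An increase of this size or more was seen in 16.3% of all genes, so the rise was small within this comparison.

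The ZEB pair moved in opposite directions. Zeb2 minus Zeb1 was -1.06, -0.92 and -0.89 on the IL-18 generated arrays and 0.91, 1.11 and 1.06 on the unstimulated arrays. The groups differed by -1.98 in this difference, a 3.95-fold shift of the ratio, with no overlap. The exact two-sided permutation test again gave p = 0.1, the smallest possible.

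Of the lineage factors, Ets1 (probe set 10584142) acts early in NK development and is also abundant in T and B cells. For Ets1 the log2 values were -0.47, -0.69 and -0.51 on the IL-18 generated arrays and 0.47, 0.56 and 0.52 on the unstimulated arrays. The unstimulated arrays agreed closely (SD 0.05) and lay at least 0.95 above the others. The change was -1.08 ± 0.08 (95% interval -1.26 to -0.89), with an adjusted p of 3.27e-06 by limma, and 2.86% of all genes changed as far down. B cell and plasma cell markers fell in the same arrays (median -0.93) while the 3 CD3 chain genes rose, and the part of either in the change of Ets1 was not tested.

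Nfil3 (probe set 10409278), also called E4bp4, is needed for NK cells to form from their progenitors. The arrays gave Nfil3 log2 values of 0.51, 0.24 and 0.41 on the IL-18 generated arrays and -0.31, -0.24 and -0.38 on the unstimulated arrays. The groups were separated by 0.48 at their nearest arrays, both of replicate 2. The change was 0.70 ± 0.09 (95% interval 0.50 to 0.89), with an adjusted p of 0.00011 by limma, and 7% of all genes rose by as much or more. It was the larger of the 2 increases among the 10 genes.

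Id2 (probe set 10399691) encodes the inhibitor of E proteins on which all innate lymphoid lineages depend. Id2 had log2 values of -0.08, 0.01 and -0.01 on the IL-18 generated arrays and -0.01, 0.12 and 0.04 on the unstimulated arrays. The groups overlapped, and the change of -0.07 ± 0.07 did not pass (limma adjusted p = 0.466). Its 95% interval, -0.24 to 0.09, allows a decrease of up to 1.18-fold.

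Tox (probe set 10511416) encodes a nuclear factor that NK development requires. Tox had log2 values of 0.15, -0.34 and -0.13 on the IL-18 generated arrays and 0.07, -0.07 and 0.13 on the unstimulated arrays. The IL-18 generated arrays spread more widely than for any other of the 10 genes (SD 0.24), with replicate 1 above every unstimulated array and replicate 2 below them all. The change of -0.15 ± 0.12 (95% interval -0.41 to 0.11) did not pass, with an adjusted p of 0.356 by limma. Over 14 other ways of fitting the data it ran from -0.28 to -0.03, without passing in any of them.

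Gata3 (probe set 10479981) encodes a zinc finger factor of T cells and helper-like innate lymphoid cells that NK cells of the thymus also need. For Gata3 the log2 values were 0.01, -0.18 and -0.17 on the IL-18 generated arrays and 0.08, 0.00 and 0.00 on the unstimulated arrays. IL-18 replicate 1 reached the unstimulated arrays, so the groups overlapped. The change of -0.14 ± 0.08 (95% interval -0.32 to 0.04) did not pass, with an adjusted p of 0.202 by limma.

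**Figure D4:**
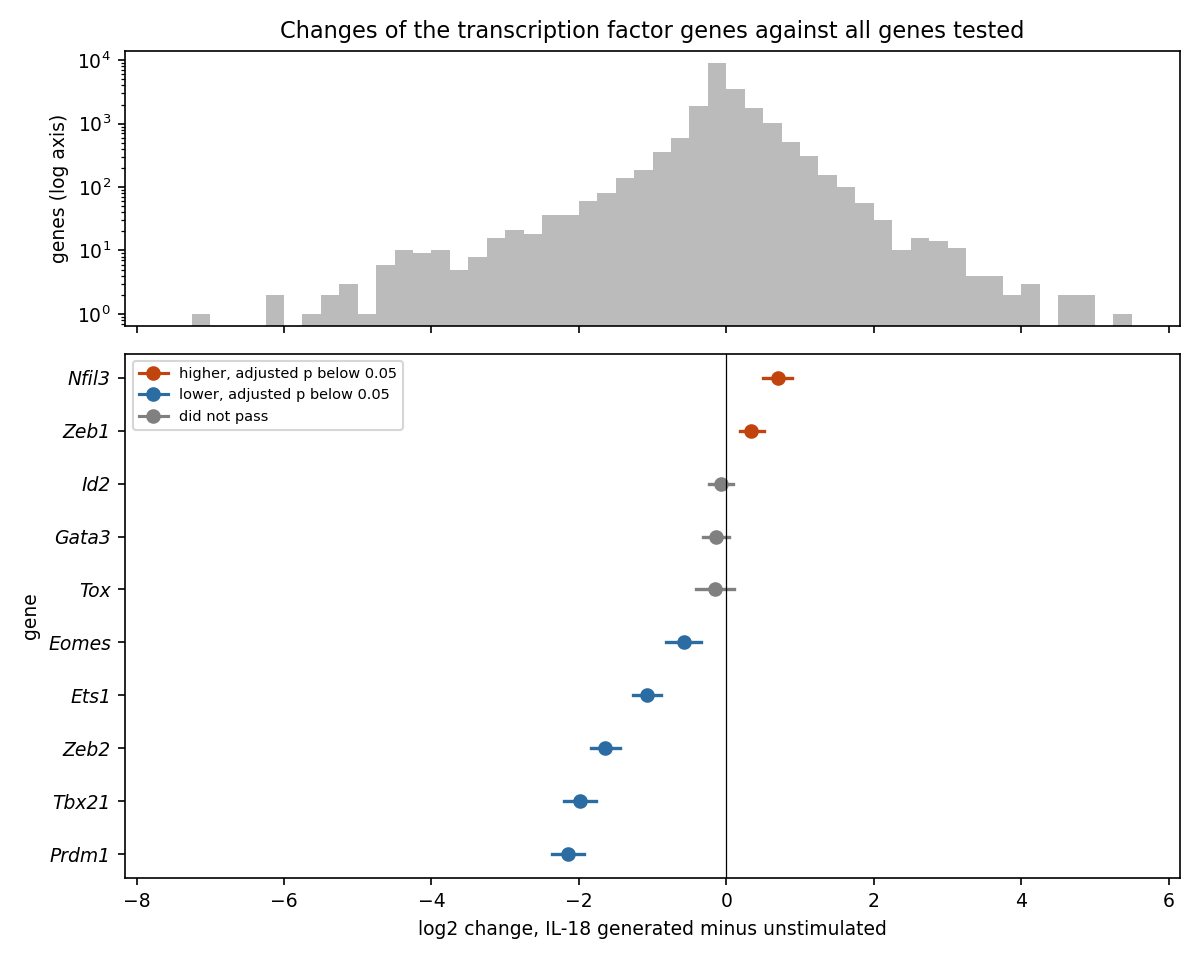
Log2 changes of the 10 genes (points) with 95% intervals (lines) below a histogram of the changes of all 19943 genes (vertical axis of the histogram logarithmic), both on the same horizontal axis. The 4 genes with the largest decreases, from -2.15 for Prdm1 to -1.08 for Ets1, lie in the left tail of the histogram, while Nfil3 at 0.70 and Zeb1 at 0.34 lie nearer the bulk of all genes.

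In order of their changes the genes ran from Prdm1, Tbx21 and Zeb2 through Ets1, Eomes, Tox, Gata3 and Id2 to Zeb1 and Nfil3. Neighbours in this order were not tested against each other, but the 95% intervals of Prdm1 and Tbx21 overlap, as do those of Tbx21 and Zeb2, of Eomes and Tox, of Tox, Gata3 and Id2, and of Zeb1 and Nfil3. The interval of Ets1 overlaps neither that of Zeb2 before it nor that of Eomes after it, and that of Zeb1 lies above that of Id2.

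The 250 bases before the listed start site of the 3 genes that fell most are shown because these genes moved together, from RefSeq on GRCm38.p6. Capitals mark the matches to the motifs listed after them. The windows read, 5′ to 3′ on the strand of the gene, chr11:97115332-97115581 (minus strand) for Tbx21, chr10:44458749-44458998 (minus strand) for Prdm1 and chr2:45113280-45113529 (minus strand), 1 of 4 listed, for Zeb2. The Tbx21 window lies immediately before the annotated gene, while those of Prdm1 and Zeb2 lie within the annotated spans of these genes, which have further start sites upstream.
Tbx21: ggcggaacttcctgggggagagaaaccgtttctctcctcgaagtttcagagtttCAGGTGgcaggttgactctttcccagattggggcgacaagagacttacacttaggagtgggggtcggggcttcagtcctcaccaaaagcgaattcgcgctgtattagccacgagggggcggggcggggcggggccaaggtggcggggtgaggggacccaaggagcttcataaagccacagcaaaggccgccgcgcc
Prdm1: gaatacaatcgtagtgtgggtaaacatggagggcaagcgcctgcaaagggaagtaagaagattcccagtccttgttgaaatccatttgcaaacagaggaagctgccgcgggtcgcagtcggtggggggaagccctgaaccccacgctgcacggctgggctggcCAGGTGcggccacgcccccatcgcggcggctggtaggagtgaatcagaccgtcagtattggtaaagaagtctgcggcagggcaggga
Zeb2: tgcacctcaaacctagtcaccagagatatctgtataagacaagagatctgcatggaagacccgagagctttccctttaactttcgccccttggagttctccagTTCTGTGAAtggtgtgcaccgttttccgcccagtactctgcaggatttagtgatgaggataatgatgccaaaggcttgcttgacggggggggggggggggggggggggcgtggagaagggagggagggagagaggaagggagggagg

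Promoter windows on chr18 and windows of another length were left out before the search, so a gene with only such windows has none here. Among the windows kept, 7 of the 10 genes had a window, and Zeb1, Tox and Ets1 had none. Exact matches on both strands were sought for 9 motifs. The share of all 32851 windows kept, each of the same length, that hold a match is given with each motif. These were the T-box sequence TCACACC (3.33%), the E-box CACCTG bound by ZEB factors (17.2%), the ETS sequence CCGGAAG (6.91%) and the GATA sequence GATAAG (6.55%). The others were the STAT sequence TTCNNNGAA (7.02%), the Nfil3 sequence TTACNTAA (2.06%), the Prdm1 sequence GAAAGTG (4.01%), the Runx sequence TGTGGT (14%) and an NF-kB motif (1.41%). The ZEB E-box was present in its reverse complement CAGGTG in the windows of Tbx21, 191 to 196 bases before the start, and of Prdm1, 82 to 87 bases before it. In Zeb2 the sequence TTCTGTGAA matched the STAT motif in 2 overlapping windows of the 4, 139 to 147 bases before the start in the one shown. Windows of Eomes, Id2, Nfil3 and Gata3 held no match to these letters. No match overlapped another motif, and a match is a description of the sequence and not evidence of binding.

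Genes that act beside these factors were taken from lists chosen with earlier results of these data known. Counts over these lists are therefore a description and not an independent test. Of 26 measured genes of other NK transcription factors (of 28 listed), 5 rose, 15 fell and 6 missed the threshold, and their median change was -0.47. Klf2, which controls lymphocyte egress and quiescence, fell by 2.87 on the log2 scale (SE 0.10). Spi1, which encodes the myeloid and early progenitor factor PU.1, changed by -3.91 ± 0.14, while the monocyte markers fell alongside (8 of 8, median -2.73), whose part in it was not tested. Nr4a1, an immediate early nuclear receptor, changed by -1.69 ± 0.18. In the other direction Rora, a nuclear receptor of helper-like innate lymphoid cells, rose by 2.57 ± 0.09, more than any of the 10 genes. Bhlhe40, a repressor induced on activation, rose by 0.96 ± 0.08, and Ikzf2, which encodes Helios, by 0.92 ± 0.10. The adjusted p of these 6 by limma was at most 4.28e-05.

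**Figure D5:**
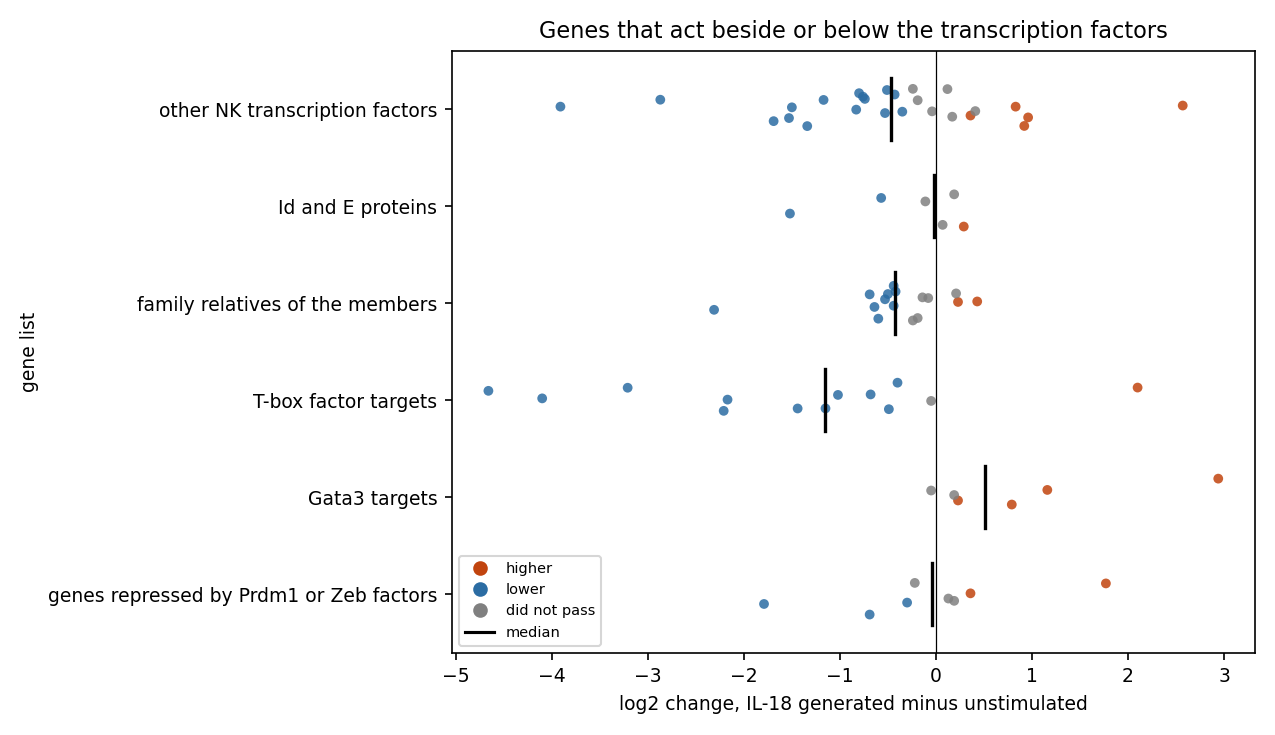
Log2 changes (IL-18 generated minus unstimulated, horizontal axis) of the genes in 6 lists, 1 point per gene, coloured by the limma call, with the list median as a black line. The T-box target list has the lowest median, -1.15, with Ifng alone above 0 at 2.10, and the Gata3 target list the highest, 0.51.

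The list of E proteins and other Id genes, the partners and relatives of Id2, also held Lyl1, which is neither. These genes did not move as a group. Of 6 measured, 1 rose, 2 fell and 3 missed the threshold, and the median change was -0.02. Lyl1, a helix-loop-helix factor of progenitors and myeloid cells, changed by -1.52 ± 0.12 (limma adjusted p 3.33e-06) and Id1 by -0.57 ± 0.12 (0.00443). Tcf12, which encodes the E protein HEB, rose by 0.29 ± 0.08 (limma adjusted p 0.013), a call that ended without IL-18 replicate 3 (0.0577). The E protein genes Tcf3 and Tcf4 had changes of -0.11 and 0.07 that did not pass.

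A list of 16 genes held relatives of the 10 genes in the TOX, GATA, ETS, T-box and PAR bZIP families. It also held Bcl6, which is in none of these families. Of the 16, 2 rose, 9 fell and 5 missed the threshold, the median change being -0.43. Gata2, a factor of mast cells and basophils, changed by -2.31 ± 0.28 (limma adjusted p 9.56e-05), in the same arrays in which 6 of 7 mast cell and basophil markers fell, Gata2 being 1 of them, and their part in it was not tested. The repressor gene Bcl6 fell by 0.69 on the log2 scale and Tef, a PAR bZIP factor that binds sites like those of Nfil3, by 0.64. Hlf, of the same family as Tef, rose by 0.43 ± 0.09. Gabpa, an ETS factor, rose by 0.23 ± 0.08 at an adjusted p of 0.0433 by limma. That call ended without any 1 of IL-18 replicates 1, 2 and 3 or unstimulated replicates 1 and 3 (adjusted p up to 0.132). The TOX relatives Tox2, Tox3 and Tox4 had changes of -0.24, -0.19 and -0.08 that did not pass, though Tox2 and Tox3 passed without unstimulated replicate 2 (lowest adjusted p over their alternatives 0.0135 and 0.0368).

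Known targets of T-bet and Eomes fell widely. Of 13 measured, 1 rose, 11 fell and 1 missed the threshold, and the median change was -1.15 beside -0.06 for all genes. S1pr5, the sphingosine phosphate receptor with which NK cells leave bone marrow, changed by -4.66 ± 0.11. Klrg1, an inhibitory receptor of mature cells, changed by -4.10 ± 0.10. Cx3cr1, the fractalkine receptor, changed by -3.21 ± 0.11, and monocytes, whose markers fell in the same arrays (8 of 8, median -2.73), also express it. Their part in its change was not tested. Ifng was the exception, with a rise of 2.10 ± 0.16 while Tbx21 fell. The adjusted p of these 4 by limma was at most 3.59e-06. Cxcr3, a chemokine receptor, had a change of -0.05 ± 0.16 that did not pass (limma adjusted p = 0.848), and it passed without unstimulated replicate 2 (adjusted p 0.0476).

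Of 6 measured targets of Gata3, 4 rose, 0 fell and 2 missed the threshold, and the median change was 0.51. Gata3 itself did not pass. Icos, a costimulatory receptor, rose by 2.94 ± 0.14, the surface glycoprotein gene Thy1 by 1.16 ± 0.14 and Il7r, the IL-7 receptor chain, by 0.79 ± 0.15. The largest adjusted p of these 3 by limma was 0.00194. T cells also express each of these genes, and both gates were CD3 negative. Of 8 measured T cell markers 3 rose, which were the CD3 chain genes, 1 fell and 4 did not pass. Of 5 measured markers of helper-like innate lymphoid cells, 2 rose (Il7r itself and Il13), 2 fell (Il17rb and Il23r) and 1 did not pass. The calls of Il17rb and Il23r ended in some of the alternative fits. The part of either set of markers in the rise of Icos, Thy1 and Il7r was not tested. Il13, a cytokine gene and the other Gata3 target that rose, changed by 0.23 ± 0.08 (limma adjusted p 0.0471). That call ended without any 1 array other than unstimulated replicate 2 (adjusted p up to 0.158).

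Of 8 measured genes known to be repressed by Blimp-1 or ZEB factors, 2 rose, 3 fell and 3 missed the threshold, and the median change was -0.04. Myc, a Blimp-1 target in plasma cells, rose by 1.77 ± 0.12 (limma adjusted p 1.37e-06), and Bach2, a repressor of effector differentiation, by 0.36 ± 0.07 (0.00293). Cdh1, which encodes E-cadherin, the classical target of ZEB repression, changed by -1.79 ± 0.23 (limma adjusted p 0.000109) in the same direction as Zeb2. Its values on the unstimulated arrays were 1.23, 1.55 and 0.51. The mast cell and basophil markers had array means of 1.52, 1.86 and 0.39 there. On the IL-18 generated arrays Cdh1 had values of -0.60, -0.51 and -0.99, and those markers had array means of -2.29, -0.38 and -2.31. Of those markers 6 of 7 fell, and their part in the change of Cdh1 was not tested. Bcl6 fell as given above. The B cell factor gene Pax5 changed by -0.30 ± 0.10 at an adjusted p of 0.0422 by limma, a call that ended without any 1 array other than unstimulated replicate 2 (adjusted p up to 0.149).

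For the 4 genes that fell at least 2-fold, the 2 other genes with the most similar values were found by root mean square distance over the 6 arrays. Nearest to Tbx21 were Il18rap, a chain of the IL-18 receptor, at a distance of 0.077, and Itgb2, the integrin chain that pairs with CD11b, at 0.089. Nearest to Prdm1 were Itih5 (0.057) and Hsd11b1 (0.080), and nearest to Zeb2 were Lpin1 (0.055) and Dnah8 (0.067). Nearest to Ets1 were the cytokine receptor genes Tnfrsf1a (0.042) and Il17ra (0.046). Such likeness is common where 2 groups differ widely: 42 genes lay within a distance of 0.2 of Prdm1, 46 of Tbx21, 131 of Zeb2 and 475 of Ets1.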

How the data were processed

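Total RNA of 6 sorted cell preparations was hybridised to 1-colour Affymetrix arrays after biotin labelling, per the labels' protocols. The authors deposited values on a log2 scale centred on each probe set's median over the 6 arrays (largest departure 5e-07). The log base was read from the values (widest range within a probe set 7.77, and rounding on the grid of log2 intensities), and no source used here gives the summarization or normalization. Array medians lay between -0.025 and 0.039, so nothing further was applied. The number of arrays limits precision. The p-values of limma set each change against the spread between these arrays, with variance pooled across genes.

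The platform annotation paired 21788 of 28815 probe sets with 1 gene symbol each and 1597 with several, and left 5430 unlisted. Probe sets of the same gene were averaged, which gave 19943 genes. The comparison used limma 3.58.1 (lmFit, eBayes, no covariate; R 4.3.3), tested on simulated data. The 10 genes, the lists, the motifs and the naming rule (all 10 genes, up to 3 passing genes per list and direction, 2 nearest genes, 3 genes of the sort) were chosen with earlier results of these data known. Genes named beyond that rule (Tox2, Tox3, Tox4, Tcf3, Tcf4, Cxcr3, Il13, Lat and the markers) and the distance of 0.2 were chosen after their values were seen. Alternatives covered variance options, normalization, array weights, probe set summaries, the fold threshold, a replicate block and leaving out each array.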

Additional observations from a re-analysis of the deposited data

How the results depend on the processing

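The 7 genes that passed did so in the same direction in all 14 alternative fits of limma at an adjusted p below 0.05 (Zeb1 at most 0.0201, Eomes at most 0.00807), and Id2, Tox and Gata3 passed in 0 of 14. Requiring a change of at least 2-fold left 0 genes higher and 4 lower of the 10. Over all genes it left 721 higher, 647 lower and 1368 in all, against 3935, 3332 and 7267 without it, because it adds a second condition. Without 1 array the counts over all genes ran from 6083 to 8586. The highest count came without unstimulated replicate 2, the array with the lowest array weight (0.46). Of 180 recomputed counts for the 6 gene lists, 15 moved by more than 1.5 times, 9 of them under the fold threshold and the others through Tcf12 and Gabpa. The Tbx21 minus Eomes difference ran from -1.55 to -1.24 and the Zeb2 minus Zeb1 difference from -2.04 to -1.90.

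Deviations of arrays with the same replicate number correlated at 0.24, 0.01 and -0.02, so the numbers were not taken as pairs, and not every array correlated best with its own number. With the replicate block, 2 of the 10 genes rose and 5 fell, and 7279 genes were called in all. The pair differences stayed at -1.40 and -1.98 (exact sign-flip p = 0.25, the smallest that 3 pairs allow). Among the genes of the lists, the block ended the calls of Gabpa, Il13 and Ms4a1, and Myb passed under it.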
